A study of Caenorhabditis elegans with 10 samples.

Results

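The MATH and BATH genes of Caenorhabditis elegans are described here in germline tumours cut from adult worms. Members were chosen by gene name and by annotated type: every protein-coding gene whose name is bath or math followed by a number. This gave 79 genes, 37 bath and 42 math, of 46536 genes in the deposited table and 20112 protein-coding genes. The family was itself selected from earlier results of these data, in which bath-13 was among the most strongly raised genes, so the values of bath-13 are a description and carry no test here.

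The MATH domain is a substrate-binding fold shared with the TRAF adaptor proteins. BATH proteins join it to a BTB domain, which binds the scaffold cullin CUL-3, so that the MATH end can hold a protein to be marked with ubiquitin by the CUL-3 ligase. Most math genes encode proteins with MATH domains and no BTB domain. In C. elegans the family is known for its large size and rapid turnover, and its best studied adaptor in the germline, MEL-26, removes the microtubule-severing protein MEI-1 after meiosis. MEL-26 carries the same pair of domains, but its gene is not a member by name.

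The study compared 5 GLP-1 ON with 5 GLP-1 OFF libraries. GLP-1 is the Notch receptor that keeps germline stem cells proliferating. The GLP-1 ON worms carried the allele glp-1(ar202), in which the receptor is overactive, and the GLP-1 OFF worms carried glp-1(q175), in which it is absent. Both groups also carried gld-2(q497) and gld-1(q485), and therefore lacked the meiotic-entry regulators GLD-2 and GLD-1 and formed tumours of mitotic germ cells. All worms were of the Bristol strain, grown from L1 larvae for 48 h at 25 °C and dissected as day 1 adults. Their total RNA was sequenced after removal of ribosomal RNA.

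The libraries held 17.5 to 38.5 M reads in genes, so that 1 read was worth 0.0260 to 0.0571 counts per 1 M reads in genes (CPM). glp-1 itself stood at 206 to 274 CPM in the ON libraries and 69.7 to 101 CPM in the OFF libraries. The first principal component of all tested genes held 45.3% of the variance and separated the groups. Germ cell markers summed to 1652 to 2354 CPM in ON against 1639 to 2391 CPM in OFF, and cgh-1 was the only one of 7 tested that was called, lower in ON. Markers of intestine summed to 1.33 to 4.62 CPM in ON against 1.74 to 12.2 CPM in OFF, those of body muscle to 10.7 to 27.7 CPM in ON against 13.8 to 23 CPM in OFF, and those of cuticle to 0.610 to 1.14 CPM in ON against 0.460 to 2.52 CPM in OFF. The genes listed for somatic gonad summed to 173 to 233 CPM in ON against 164 to 245 CPM in OFF. Most of this came from ptc-1, a gene also known to act in germ cells. The sum is therefore not read as a level of somatic gonad. All the others of that list averaged lower in ON. lim-7 was called lower (limma adjusted p = 0.033), a call lost under 8 of 21 alternatives. inx-8 (22.4 CPM in ON against 28.1 in OFF) and inx-9 (3.06 against 3.91) were not called, and ceh-18 and lag-2 were too low to be tested. Neuron markers summed to 22.8 to 30.8 CPM in ON against 22.5 to 33.7 CPM in OFF, most of it from snb-1. Sperm markers summed to 22.4 to 26.1 CPM in ON against 27.9 to 33.6 CPM in OFF, with spe-44 and spe-6 called lower in ON. Both of these calls were lost when the 3 sets of library numbers in the sample descriptions were a term in the fit (limma adjusted p = 0.053 for spe-44 and 0.0553 for spe-6). spe-9 stood at 1.05 to 2.17 CPM in ON against 0.307 to 0.652 CPM in OFF, and since it passed the filter through its ON libraries alone, no test is given for it. None of the markers was at 0 in all 10 libraries. The part of other cells in the results was not tested, and in such bulk samples fewer cells of a type and less RNA per cell cannot be told apart.

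The family held both well-read genes and genes without a read. Of the 79 members, 34 (43%) averaged at least 1 CPM over the 10 libraries and are called expressed here. Another 9 averaged from 0.1 to under 1 CPM (low), 27 had reads but averaged under 0.1 CPM (trace), and 9 had no read in any library (silent). Over all protein-coding genes 32.0% were expressed, against 8.73% of the 332 F-box genes named fbxa, fbxb or fbxc and 17.6% of the 17 btb genes, which belong to other adaptor families for ubiquitin ligases. These shares are descriptions, since the classes were set on the measured levels.

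The bath genes made up most of the expressed members. Of the 37 bath genes 27 (73.0%) were expressed, 2 were low, 7 were at trace level and 1 was silent. Of the 42 math genes 7 (16.7%) were expressed, 7 were low, 20 were at trace level and 8 were silent. The median level was 11.9 CPM over the bath genes and 0.0126 CPM over the math genes.

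**Figure D1:**
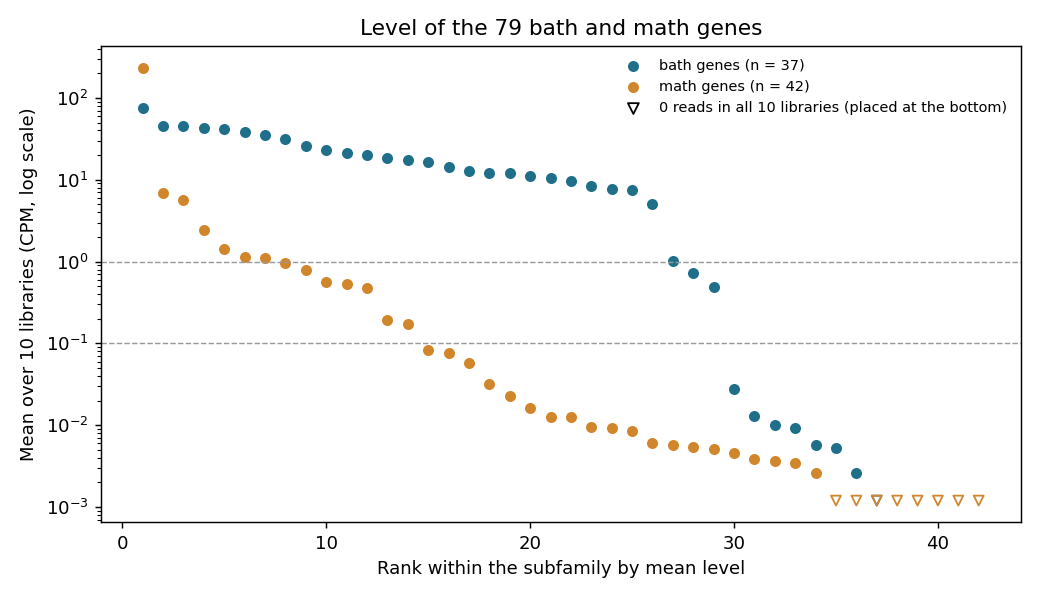
Mean level over the 10 libraries (CPM, log axis) of each bath gene (n = 37) and each math gene (n = 42), ranked within its subfamily; dashed lines mark 0.1 and 1 CPM and open triangles mark genes with no read. The bath genes stay above 5 CPM down to rank 26 and then drop, while the math genes have 1 gene at 234.8 CPM and fall below 1 CPM after rank 7.

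The silent members were math-2, math-5, math-10, math-15, math-16, math-27, math-29, math-40 and bath-46. A count of 0 over the 265 M reads of all 10 libraries allows a mean of up to 0.0113 CPM at a limit of 3 reads, which covers counting error only. For a single library the same limit lay between 0.0779 and 0.171 CPM. The 27 trace members had between 1 and 22 reads each over all 10 libraries. Some of these rows may not be genes that make protein: math-2, math-17, math-27, math-29 and math-50 are annotated as pseudogenes in the current Ensembl annotation, and 3 of these 5 are silent. math-50 is the exception among the 5, with 1.43 CPM on average.

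The summed level of the family was close to even between the groups. It was 820, 807, 883, 933 and 875 CPM in the ON libraries and 772, 994, 863, 954 and 785 CPM in the OFF libraries. The ON libraries all lay within the OFF range, and the means were 863 ± 51.0 CPM in ON against 874 ± 99.0 CPM in OFF (SD, n = 5 each). A single gene, math-33, supplied 27% of this sum, the 10 highest members 70.9%, and the 45 members that were not expressed 0.619%. Without math-33, the math genes summed to 23.4, 26.6, 26.5, 28.4 and 32.1 CPM in ON against 14.8, 21.5, 17.8, 20.2 and 16.4 CPM in OFF. In this smaller sum, with means of 27.4 CPM in ON against 18.1 CPM in OFF, every ON library stood above every OFF library. It includes the called genes math-44 (8.74 CPM in ON against 4.93 in OFF), math-49 (7.05 against 4.42) and math-50 (1.91 against 0.944). The sum is thus not a level shared by the math genes.

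The 10 highest members included math-33, bath-42 and bath-43, whose proteins have described partners or activities. math-33 encodes the orthologue of the human deubiquitinase USP7, in which a MATH domain recognises substrates of a ubiquitin protease. Its level was 205, 197, 248, 252 and 251 CPM in ON libraries and 187, 273, 252, 275 and 208 CPM in OFF libraries. The ranges overlapped throughout, and the difference was -0.04 ± 0.12 on the log2(CPM + 1) scale (SE; limma adjusted p = 0.849). Relative to coding length math-33 remained the highest member at 68.8 CPM per kb, ahead of bath-42 at 61.1 and bath-5 at 49.0 CPM per kb. On the deposited scale, which does not correct for length, math-33 averaged 234.8 CPM and bath-42 75.1 CPM. The math-33 gene spans H19N07.3 on the opposite strand, and whether reads were counted by strand is not given in the sources used here.

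bath-42 encodes a BTB and MATH protein reported to bind CUL-3. Its level was 70.9, 60.8, 76.8, 84.8 and 75.0 CPM in ON against 64.2, 89.0, 76.3, 82.5 and 71.0 CPM in OFF. No shift was visible between these overlapping values, with a difference of -0.05 ± 0.11 log2 (SE; limma adjusted p = 0.778). bath-43, renamed spop-1 in the current annotation as the counterpart of the human CUL3 adaptor SPOP, had 41.0 ± 4.59 CPM in ON against 42.7 ± 2.86 CPM in OFF (SD, n = 5 each). Its difference of -0.06 ± 0.10 log2 was not called (limma adjusted p = 0.719).

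The other members among the 10 highest without a call lay close together in both groups. bath-5 averaged 44.6 ± 2.36 CPM in ON against 45.0 ± 4.27 CPM in OFF. bath-41 averaged 43.4 ± 3.66 CPM in ON against 42.5 ± 3.66 CPM in OFF. bath-44 averaged 39.0 ± 4.07 CPM in ON against 36.9 ± 4.03 CPM in OFF. These levels sit within 1 SD of each other between the groups. bath-28 averaged 35.8 ± 3.81 CPM in ON against 34.2 ± 4.66 CPM in OFF, and bath-2 averaged 31.3 ± 1.84 CPM in ON against 32.4 ± 2.87 CPM in OFF (SD, n = 5 each throughout). Per kb of coding sequence, bath-40 and bath-28 stood at 37.9 and 37.8 CPM, bath-2 at 34.9, bath-41 at 34.2, bath-44 at 31.9, bath-43 at 30.9 and bath-30 at 27.6 CPM. The gene spans of bath-41 and bath-28 each overlap another gene (F37A4.3 and F14D2.15), so their reads could be shared.

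The comparison of the groups covered the 33 members (26 bath and 7 math) with at least 1 CPM in at least 5 of the 10 libraries. The other 46 members were too low to be tested. Of the 33, limma called 6 higher and 3 lower in ON at an adjusted p under 0.05 over all 6833 genes tested, and 24 were not called. In the same fit 6.7% of all tested genes were called higher and 12.4% lower. The share of tested members was 18.2% higher and 9.09% lower, and 15.6% higher without bath-13, which leaves 5 of 32. Without math-50 as well, which passed the filter because of its ON libraries, it was 4 of 31 (12.9%). The median difference of the tested members was 0.02 log2, against -0.05 log2 over all tested genes. Libraries were also scaled by TMM, which allows for a shift in composition. Then 7 members (21.2%) were called higher and 5 (15.2%) lower, beside 16.5% and 18.2% of all tested genes. Without bath-13 and math-50, 16.1% of the tested members were called higher under TMM.

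The 24 tested members without a call had differences from -0.27 to 0.32 log2, with adjusted p from 0.052 to 0.958. Groups without overlap were seen in 8 tested members. In bath-13, math-44, math-50 and bath-7 every ON library was above every OFF library, and 5.01% of all tested genes showed this. In bath-27, bath-30, bath-29 and bath-34 every ON library was below every OFF library, as in 9.92% of all tested genes.

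**Figure D2:**
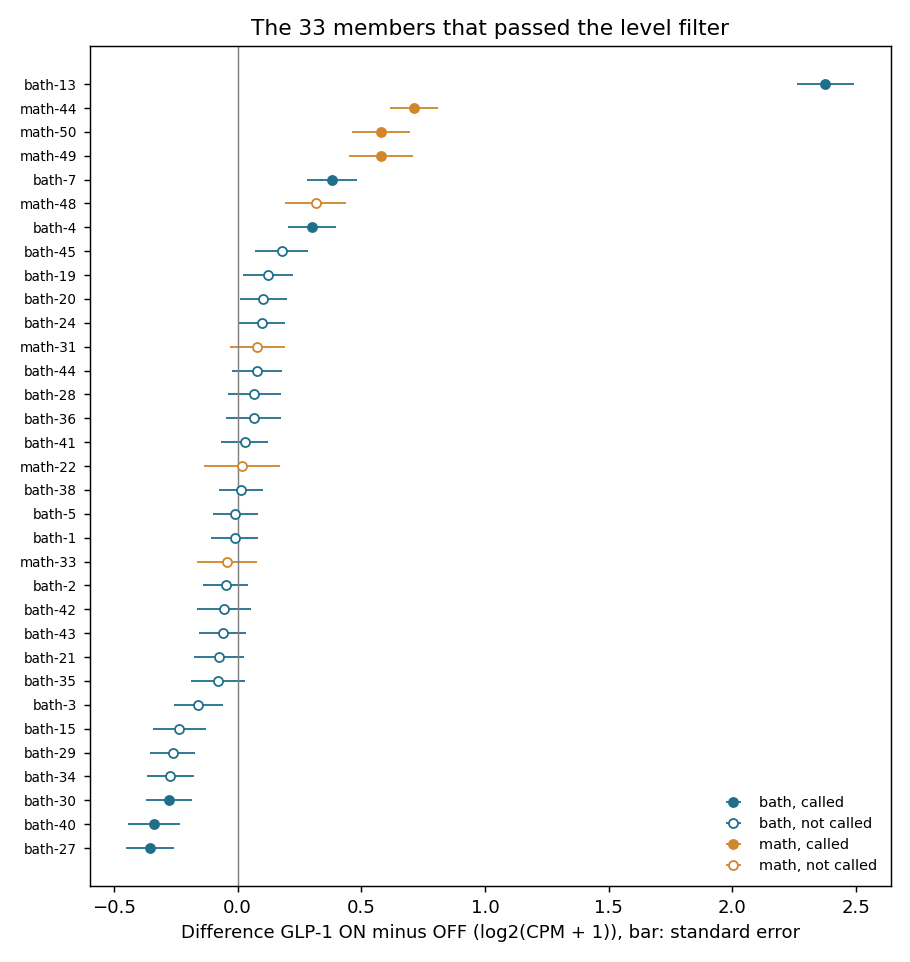
Difference between GLP-1 ON and GLP-1 OFF on the log2(CPM + 1) scale, with its standard error, for the 33 tested members (26 bath, 7 math); filled points were called at an adjusted p under 0.05. bath-13 stands apart at 2.38, 3 math genes follow at 0.58 to 0.71, and the 24 open points lie between -0.27 and 0.32.

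bath-13 had the widest gap of the tested members. It stood at 13.4, 15.1, 13.3, 14.3 and 9.94 CPM in the ON libraries and at 1.55, 2.22, 1.88, 1.5 and 1.48 CPM in the OFF libraries. The lowest ON library was more than 4 times the highest OFF library. The means were 13.2 ± 1.95 CPM in ON against 1.72 ± 0.319 CPM in OFF (SD, n = 5 each), a ratio of 7.66 and a difference of 2.38 ± 0.12 log2. In reads, this was 1889 in ON and 205 in OFF. bath-13 encodes a BTB and MATH protein and is a gene of 5 exons on the minus strand at II:2520842-2522060 (WBcel235). It lies outside the dense part of the family on that chromosome, with no other protein-coding member within 100 kb.

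The annotated rows next to bath-13 at higher coordinates, which lie upstream of it on the same minus strand, also had more reads in ON. bath-18, an annotated pseudogene 0.567 kb from bath-13, had 1.02, 1.22, 1.27, 1.31 and 1.25 CPM in ON libraries and 0, 0, 0.192, 0.102 and 0 CPM in OFF libraries. That is 178 reads in ON and 8 reads in OFF. K02F6.7, 3.16 kb from bath-13, held 41 reads in ON and 5 in OFF, with 0.216 to 0.343 CPM in ON against 0 to 0.0869 CPM in OFF, and was too low to be tested. On both rows every ON library was above every OFF library. bath-18 passed the filter through its ON libraries alone, so no test is given for it.

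At lower coordinates the difference was smaller or not called. bath-12, an annotated pseudogene 4.74 kb from bath-13 and on the same strand, averaged 6.36 ± 0.485 CPM in ON against 4.28 ± 0.662 CPM in OFF (SD, n = 5 each). Every ON value of bath-12, from 5.83 to 7.06 CPM, was above every OFF value, from 3.60 to 5.34 CPM, and the row was called higher (0.49 ± 0.10 log2, limma adjusted p = 0.002). gbas-1, 5.94 kb from bath-13 and on the plus strand, averaged 83.5 ± 8.94 CPM in ON against 79.7 ± 11.9 CPM in OFF and was not called (limma adjusted p = 0.707). bath-12 and bath-18 share the family name of bath-13 and K02F6.7 lies close to it, but their sequences were not compared. Any reads that match more than 1 of these rows could be placed on either. How such reads were treated is not given in the sources used here, and their part was not tested.

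**Figure D3:**
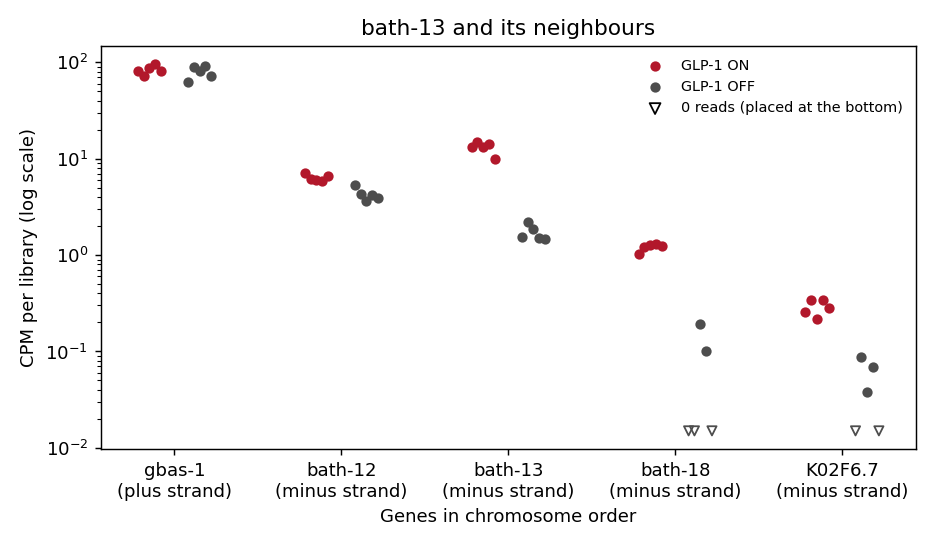
Level in each library (CPM, log axis; open triangles mark 0 reads) of bath-13 and its neighbours in chromosome order, with GLP-1 ON left of GLP-1 OFF within each gene. The ON points lie above the OFF points for bath-12, bath-13, bath-18 and K02F6.7, while those of gbas-1 overlap at 63.1 to 95.6 CPM.

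The next largest increases were in math genes of chromosome II. math-44 had 9.09, 9.87, 7.59, 8.28 and 8.85 CPM in ON libraries and 4.64, 5.65, 4.64, 4.57 and 5.16 CPM in OFF libraries. All ON values exceeded all OFF values, and the means of 8.74 ± 0.860 CPM in ON against 4.93 ± 0.466 CPM in OFF (SD, n = 5 each) differed by 0.71 ± 0.10 log2 (limma adjusted p = 2.1e-05). math-49 and math-50, like math-44, are known as MATH domain genes by sequence, and they lie next to each other on the minus strand. math-49 stood at 5.60, 6.40, 7.29, 7.26 and 8.70 CPM in ON against 3.26, 5.60, 4.52, 5.12 and 3.60 CPM in OFF. Its groups met at the lowest ON library and the highest OFF library, both at 5.60 CPM, and the difference was 0.58 ± 0.13 log2 (limma adjusted p = 0.0029). math-50 stood at 1.49, 1.6, 1.94, 2.23 and 2.28 CPM in ON against 0.694, 0.999, 1.15, 1.09 and 0.784 CPM in OFF. Its groups did not overlap, and it differed by 0.58 ± 0.12 log2. math-50 reached 1 CPM in 5 ON libraries and in only 2 OFF libraries, so its place in the test depended on the group where it was high. Under a filter at 0.1 CPM, which all 10 of its libraries met, its limma adjusted p was 0.000904. A pseudocount of 1 CPM understates changes at such low levels.

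bath-7 and bath-4 were called with smaller differences. bath-7 had 12.1, 13, 14.8, 15.6 and 12.7 CPM in ON libraries and 8.70, 11.1, 10.2, 11.5 and 9.59 CPM in OFF libraries. Its ON values all lay above its OFF values, and the difference was 0.38 ± 0.10 log2 (limma adjusted p = 0.011). bath-4 had 15.9, 15.2, 15.8, 18.6 and 14.9 CPM in ON against 12.1, 15.2, 12.8, 12.6 and 11.7 CPM in OFF. These overlapped at the OFF library of replicate 2, and the difference was 0.30 ± 0.10 log2 (limma adjusted p = 0.035). The bath-4 call ended when any of 7 libraries was left out (ON replicate 1, 3 or 4, or OFF replicate 1, 3, 4 or 5), with adjusted p from 0.0654 to 0.101. It also ended with a filter at 0.1 CPM (adjusted p = 0.0603) and with no filter (0.0766). bath-4 and bath-7 encode BTB and MATH proteins and stand within 2 kb of each other.

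The 3 members called lower were all bath genes. bath-27 had 8.44, 10.1, 9.23, 8.57 and 9.66 CPM in ON libraries and 10.5, 13.7, 12, 12.9 and 11.2 CPM in OFF libraries. Its ON values all lay below its OFF values, with a difference of -0.35 ± 0.10 log2 (limma adjusted p = 0.013). F14D2.2 overlaps bath-27 on the same strand, so the reads of the pair could be divided between them.

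bath-40 had 38.9, 35.4, 41.1, 44.7 and 40.3 CPM in ON against 42.4, 56.3, 51.8, 59.6 and 46.1 CPM in OFF. Only the ON library of replicate 4 reached into the OFF range, and the difference was -0.34 ± 0.10 log2 (limma adjusted p = 0.027). The bath-40 call ended without ON replicate 1, 2 or 5 or without OFF replicate 2, 3 or 4, with adjusted p from 0.054 to 0.0916, and with no filter (0.0686).

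bath-30 had 24.6, 24.4, 22.8, 23.4 and 21.6 CPM in ON against 28.3, 31.7, 26.9, 31.7 and 24.6 CPM in OFF. The groups came within rounding of each other at 24.6 CPM without overlapping, and the difference was -0.28 ± 0.09 log2 (limma adjusted p = 0.044). Leaving out OFF replicate 5 kept the bath-30 call, and leaving out any of the other 9 libraries ended it, with adjusted p from 0.056 to 0.132. It also ended with a filter at 0.1 CPM (adjusted p = 0.0569) and with no filter (0.0857). Just short of a call were bath-29, at 18 ± 1.16 CPM in ON against 21.9 ± 1.96 CPM in OFF, and bath-34, at 16.5 ± 1.12 CPM in ON against 20.1 ± 2.28 CPM in OFF (SD, n = 5 each). Their limma adjusted p-values were 0.052 for bath-29 and 0.054 for bath-34. Each was called under TMM scaling.

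**Figure D4:**
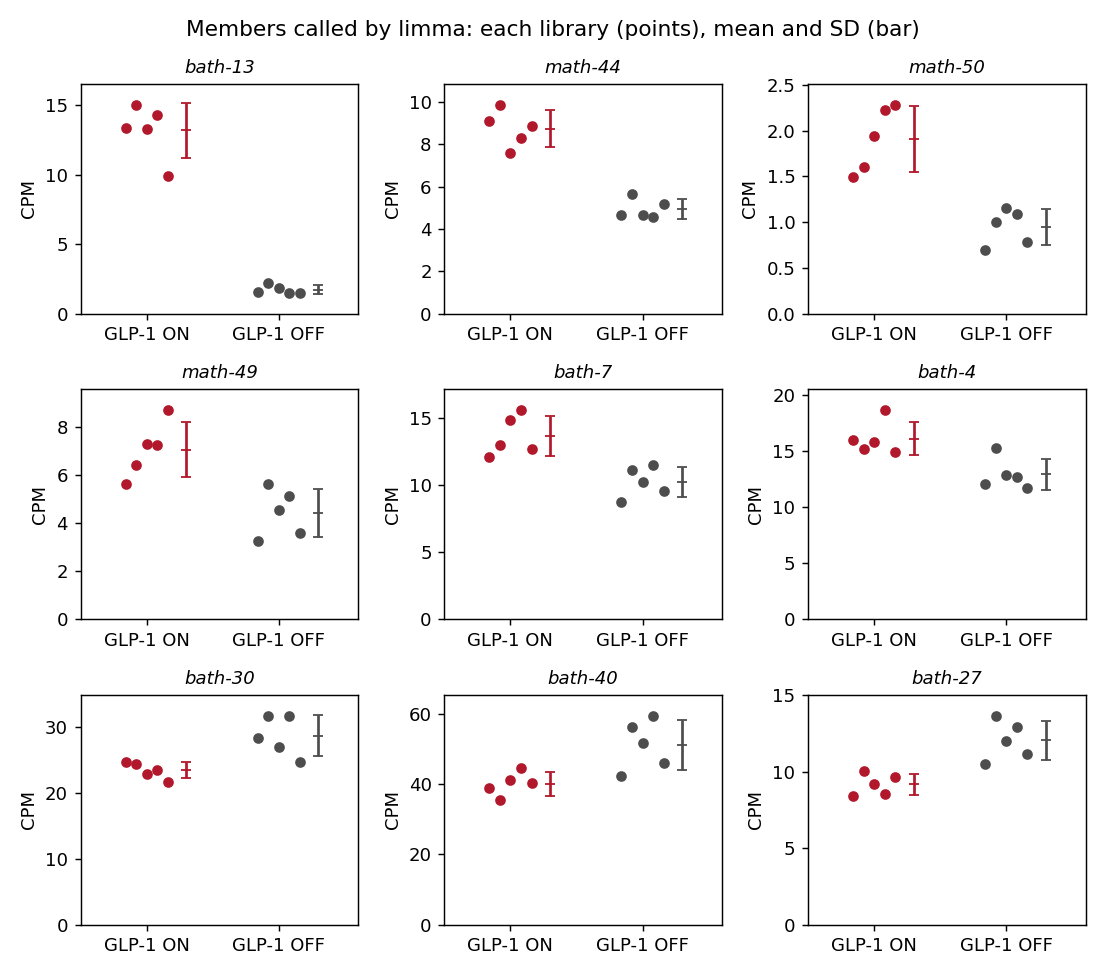
Level in each library (CPM, axis from 0) of the 9 members called by limma, GLP-1 ON left of GLP-1 OFF, with the mean and SD of 5 libraries beside the points. The panels run from bath-13 at 13.2 CPM in ON against 1.72 CPM in OFF to bath-27 at 9.19 CPM in ON against 12.1 CPM in OFF; in bath-4, math-49 and bath-40 the groups touch or overlap.

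The library numbers in the sample descriptions fall into 3 sets, and what the numbers mark is not stated. Each set holds libraries of both groups, so each called member was compared within each set. The differences of bath-13 were 2.33, 2.58 and 2.43 log2 in the 3 sets, and those of math-44 were 0.72, 0.96 and 0.58 log2. math-49 differed by 0.32, 0.35 and 0.92 log2, math-50 by 0.44, 0.29 and 0.82 log2, and bath-7 by 0.27, 0.24 and 0.53 log2. For these 3 genes and for bath-4 the third set, which holds 3 of the 5 ON libraries and 1 OFF library, had the widest difference. bath-4 differed by 0.22, 0.24 and 0.45 log2, bath-27 by -0.46, -0.28 and -0.26 log2, bath-40 by -0.32, -0.64 and -0.13 log2 and bath-30 by -0.28, -0.25 and -0.12 log2. All 9 members kept their direction in all 3 sets. They were called on these same libraries, and in every set 1 of the groups had only 1 library. The within-set values are therefore a description and no further support for the calls. With the set as a term in the fit, math-44, math-49 and bath-7 were called. The calls of bath-4 (limma adjusted p = 0.0797), bath-27 (0.0509), bath-40 (0.0653) and bath-30 (0.225) were lost in that fit. math-50 is left out here, since it passed the filter because of its ON libraries.

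The edge of the filter ran through a group of math genes near 1 CPM. Just inside were math-31, at 1.2 ± 0.220 CPM in ON against 1.08 ± 0.172 CPM in OFF, and math-22, at 1.11 ± 0.286 CPM in ON against 1.12 ± 0.529 CPM in OFF. Just outside were math-1, at 1.00 ± 0.257 CPM in ON against 0.946 ± 0.137 CPM in OFF, and math-23, at 0.905 ± 0.236 CPM in ON against 0.692 ± 0.268 CPM in OFF (SD, n = 5 each). All 4 overlapped between the groups.

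A filter at 0.1 CPM brought 43 members into the test and called 8 higher and 2 lower, beside 6.43% and 8.88% of all genes tested under that filter. Without bath-13, 7 of 42 members (16.7%) were called higher. The calls of bath-4 and bath-30 were lost under that filter. The added calls were math-18, bath-39 and math-9, named after their values were seen. math-18 stood at 0.509, 0.457, 0.648, 0.971 and 0.960 CPM in ON against 0.107, 0.304, 0.383, 0.136 and 0.231 CPM in OFF, which is 104 reads in ON and 28 in OFF. Its groups did not overlap (limma adjusted p = 0.0023 under that filter). bath-39 had 103 reads in ON and 35 in OFF (limma adjusted p = 0.015), and math-9 had 39 reads in ON and 15 in OFF. OFF replicate 5 of math-9 was at 0.0461 CPM. math-9 thus met the filter only with its ON libraries, and no test is given for it. The bath-39 groups overlapped and the math-9 groups did not. F25H9.2 overlaps the bath-39 gene on the same strand, so the reads of that pair could be divided between them.

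Expressed members were counted by place in the genome. On chromosome II lie 66 of the 79 members, of which 25 were expressed. These were 19 of the 26 bath genes and 6 of the 40 math genes there. The 13 members on other chromosomes included 9 expressed ones, and all 4 on chromosome III (bath-15, bath-41, bath-42 and bath-43) were among these. The single member on chromosome IV, bath-37, was at trace level.

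Along chromosome II expressed and unexpressed members came in runs. The first 31 members in order, from math-34 to math-23 (II:1028972-1904446), were all below 1 CPM. The next 9, from math-22 to math-44 (II:1905404-1990535), were all expressed, at 1.11 to 31.8 CPM. Then came 3 unexpressed math genes, math-21 to math-19, followed by 7 expressed bath genes from bath-21 to bath-24 (II:2014902-2045605) at 5.09 to 44.8 CPM, and 4 unexpressed math genes from math-1 to math-18. The first border was gradual: mean levels were 0.196 CPM for math-9, 0.527 for math-25, 0.566 for math-24, 0.798 for math-23 and 1.11 CPM for math-22. The last border was not, with bath-24 at 16.6 CPM next to math-1 at 0.973 CPM.

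Other protein-coding genes were counted in the same runs. In the run of 31 unexpressed members 25 of 183 other coding genes (13.7%) were expressed. In the run of 9 expressed members 9 of 9 other coding genes were expressed, and in that of 7 expressed bath genes 4 of 4. In the run from math-1 to math-18 it was 3 of 27 (11.1%). In the next run of 5 expressed members, from bath-13 to bath-27 (II:2520842-3361451), it was 31 of 238 (13%). That run covers 841 kb, most of it the stretch without a coding member between bath-13 and bath-28 (II:2522060-3343731). Its count is thus unlike those of the runs of 9 and 7 expressed members, which cover 85.1 and 30.7 kb. The runs were drawn from the members' own levels, so these counts are descriptions with no test.

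The called members were counted by position. With members grouped where the gap to the next is at most 100 kb, the largest group holds 47 members over 449 kb (II:1706709-2155220), of which 16 were tested, out of 33 tested in the whole family. It holds 5 of the 6 members called higher, in the order bath-4, bath-7, math-49, math-50 and math-44, and none called lower, where 6.7% of all tested genes were called higher and 12.4% lower. Of these, math-50 passed the filter because of its ON libraries, and the member called higher elsewhere, bath-13, carries no test here. Without both, 4 members were called higher, all of them in this group. bath-27 and bath-30, both lower, lie in a group of 7 members at II:3343731-3378834, and bath-40, also lower, is on chromosome I. Between bath-4 and math-44 also lie bath-2 and math-48, which were not called: math-48 averaged 2.83 ± 0.671 CPM in ON against 2.05 ± 0.255 CPM in OFF (SD, n = 5 each, limma adjusted p = 0.081). math-48 was called under TMM scaling, but its differences in the 3 sets of library numbers were -0.14, 0.30 and 0.53 log2.

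**Figure D5:**
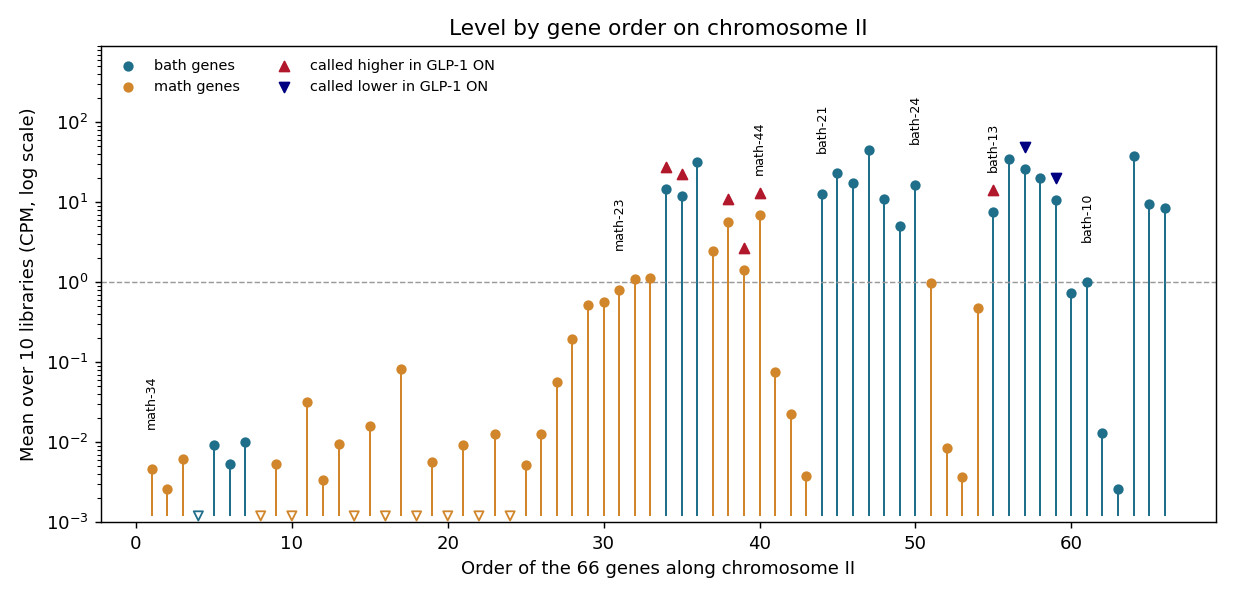
Mean level over the 10 libraries (CPM, log axis) of the 66 members on chromosome II in gene order, with open triangles for genes without reads, a dashed line at 1 CPM and markers over members called higher or lower in GLP-1 ON. The first 31 genes stay below 1 CPM, runs of 9 and 7 expressed genes follow, and 5 of the 6 upward markers are on the run of 9 genes that ends at math-44. Among these 5 is math-50, which passed the level filter because of its ON libraries, and the marker elsewhere is bath-13, which carries no test.

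bath-10, a BTB and MATH gene in the same group of 7 members as bath-27 and bath-30, owed its place among the expressed members to 1 library. It had 0.109, 0.114, 0.189, 0.0571 and 9.29 CPM in ON libraries and 0.0534, 0.0869, 0.0766, 0.0341 and 0.0461 CPM in OFF libraries. ON replicate 5 held 358 of its reads and the other 9 libraries together 21. Without that library 33 members were expressed instead of 34. Its neighbours were not high in that library: bath-23 stood at 0.753 CPM in ON replicate 5, within its range of 0.6 to 0.971 CPM over all libraries, and bath-9 had no read there. One other gene of the table, cccp-1 on chromosome III, was above 5 CPM in ON replicate 5 and at least 10 times every other library, at 83.7 CPM against at most 0.587 CPM. The other 9 libraries had 0 to 6 such genes each.

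The family has 14 more rows by name that the deposited table lists as pseudogenes. Of these 7 averaged at least 1 CPM and 8 were tested. bath-22 averaged 4.05 ± 0.681 CPM in ON against 6.13 ± 0.972 CPM in OFF (SD, n = 5 each) and was called lower (-0.50 log2, limma adjusted p = 0.0046). The 5 rows without a call among the 8 were bath-11, bath-6, bath-14, math-47 and math-30, at 1.39 to 8.17 CPM in either group.

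The ligase that BATH proteins serve was examined through its own genes and those that regulate it. A list of 15 genes covered the CUL-3 ligase core, the neddylation that activates it, the exchange factor gene cand-1 and the COP9 signalosome. The last, with csn-1 to csn-6 and cif-1, removes the ubiquitin-like protein NED-8 from cullins. All 15 were tested, 1 was called higher, 1 lower and 13 were not called, with a median difference of 0.05 log2. These are 6.67% in each direction, beside 6.7% higher and 12.4% lower over all tested genes. cul-3, the cullin scaffold, averaged 170 ± 21.2 CPM in ON against 129 ± 18.1 CPM in OFF (SD, n = 5 each), a difference of 0.40 log2 (limma adjusted p = 0.018). That call ended without ON replicate 4 (adjusted p = 0.0501), with no filter (0.0552) and with the number set as a term (0.0994). ula-1, a subunit of the enzyme that activates the ubiquitin-like protein NED-8, was lower, at 37.8 ± 1.04 CPM in ON against 50.1 ± 3.95 CPM in OFF (-0.40 log2, limma adjusted p = 0.0029). Among those without a call, the exchange factor gene cand-1 averaged 272 ± 43.2 CPM in ON against 272 ± 38.4 CPM in OFF, and ned-8 itself 22.2 ± 0.950 CPM in ON against 18.2 ± 3.02 CPM in OFF (limma adjusted p = 0.057).

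MEL-26 and its reported partners were not called in either direction. mel-26 averaged 66 ± 8.22 CPM in ON against 66.3 ± 9.43 CPM in OFF (limma adjusted p = 0.982). Its substrate gene mei-1 averaged 39.7 ± 3.55 CPM in ON against 46.5 ± 5.95 CPM in OFF, and mei-2, which encodes the partner of MEI-1, averaged 38.3 ± 1.44 CPM in ON against 42.5 ± 7.77 CPM in OFF (SD, n = 5 each). Both overlapped between the groups, with limma adjusted p of 0.149 for mei-1 and 0.461 for mei-2.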

How the data were processed

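The authors deposited 1 table of CPM signal values per gene for 10 libraries, made with STAR 2.0.4b, featureCounts 1.4.5 of Subread, edgeR and limma per the submitters' processing notes. The genome build, the strand setting and the handling of multi-mapping reads were not given in the sources used here. Of 46998 rows, 462 repeats were removed. All values came out as whole reads within 0.01 read, which gives 17.5 to 38.5 M reads per library. Reads without molecular identifiers are not independent molecules. The design text calls the replicates biological.

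Positions, coding lengths and current names come from the WBcel235 annotation of Ensembl release 115, matched by gene identifier (46363 genes). Protein and promoter sequences were not analysed here. Groups were compared with limma 3.58.1 (R 4.3.3), two-sided, on log2(CPM + 1) with a trended variance, over genes that reached 1 CPM in 5 or more libraries, with Benjamini-Hochberg adjustment over all of them. bath-18 and spe-9 passed this filter only through their ON libraries. Fold differences are on that scale. edgeR 4.0.16 and DESeq2 1.42.0 on the recovered reads were alternatives, as were other scalings, filters, pseudocounts, class limits and each library left out. The test was checked on simulated data. Named genes are the called members, the 10 highest, those whose groups do not overlap, those at the filter's edge, those with a described role and the neighbours of bath-13. The members and lists were chosen with earlier results of these data known.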

Additional observations from a re-analysis of the deposited data

Results flagged for a closer look

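Among 86 groups of 5 libraries, formed from the 43 members with a mean of at least 0.1 CPM, 4 held 1 library far from the other 4, and chance gives about 1 in 20. bath-10 stood at 9.29 CPM in GLP-1 ON replicate 5, and the remaining ON libraries lay at 0.0571 to 0.189 CPM. bath-4 stood at 18.6 CPM in GLP-1 ON replicate 4, with the others at 14.9 to 15.9 CPM. bath-5 stood at 52.3 CPM in GLP-1 OFF replicate 2, with the others at 41.7 to 44.5 CPM. math-23 stood at 1.16 CPM in GLP-1 OFF replicate 4, with the others at 0.507 to 0.651 CPM.

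Of the family rows annotated as pseudogenes, which the counts of members leave out, bath-12 averaged 6.36 CPM in GLP-1 ON and 4.28 CPM in GLP-1 OFF, and bath-18 averaged 1.21 CPM in GLP-1 ON and 0.0588 CPM in GLP-1 OFF. Both rows are neighbours of bath-13.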

How the results depend on the processing

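The difference of bath-13 stayed at or above 1.43 log2. The calls of math-44, math-49 and bath-7 held under all 21 alternatives, as did those of ula-1, bath-12 and bath-22. math-50 is left out here, since most alternatives kept the 1 CPM filter that it passed because of its ON libraries. None of the named genes changed direction with a call. The count of members called higher, 6, was 10 with edgeR and a filter at 0.1 CPM, an alternative chosen after seeing the data, and 5 to 6 with 1 library left out. The count called lower, 3, was 5 under TMM or median-ratio scaling, edgeR or DESeq2, 1 without a filter, 0 with the number set as a term, and 1 to 5 with 1 library left out. Over all genes 1305 were called, against 2376 with TMM, 2372 with median-ratio scaling, 2382 with edgeR, 2737 with edgeR at the 0.1 CPM filter, 2534 with DESeq2, and 981 to 1424 with 1 library left out. The larger counts of members under TMM or median-ratio scaling, edgeR and DESeq2 thus came with more calls over all genes. They are not read as a result about the members. Among the alternatives, shares by direction over all genes are given for TMM and the 0.1 CPM filter only. TMM scaling moved the median difference of all tested genes by 0.04 log2. With a replicate block 5 members were called lower. The labels share replicate numbers, but deviations of same-numbered libraries correlated at -0.02 to 0.46, not every library correlated best with its own number, and the numbers were not taken as pairs. The class counts stayed within 1.5 times under other limits, per kb and without any 1 library. Below 1 CPM a gene rests on fewer than 38.5 reads in the deepest library, so silent and trace levels are not told apart well.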
